A study of Mus musculus with 15 samples.

Results

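The subunits of the oxidative phosphorylation machinery were compared between mouse hearts after a sham operation and after an operation labelled TAC. Members were the non-control probe sets whose platform annotation gives 1 symbol, with a symbol beginning Ndufa, Ndufb, Ndufc, Ndufs, Ndufv, Uqcr or Atp5, or matching Cox4 to Cox8, Sdha to Sdhd, Cyc1 or Cycs. They numbered 101 of 12422 probe sets, for 73 of 8251 genes named by a single symbol, and 81 of them for 67 genes were bright enough to be tested among 7453 probe sets. Complex I held 31 of the tested probe sets, complex II 4, complex III 9, cytochrome c 1, complex IV 16 and complex V 20. The symbol rule also takes in Ndufaf1 and Ndufaf4, which are assembly factors of complex I, and Cox7a2l, which joins respiratory supercomplexes. Another 10 probe sets annotated with several symbols were left out. Probe sets of related genes can bind transcripts of several family members, so close paralogs are uncertain.

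RNA came from the left ventricle of 3 female sham hearts (1 to 3), 6 male sham hearts (4 to 9), 3 female hearts with the operation labelled TAC (1 to 3) and 3 male TAC hearts (4 to 6), 1 array each. The labels do not spell out TAC, and strain, age and time after the operation are not stated there. They describe each sample as a heart and do not number the animals, so the samples were taken as separate hearts and the p-values rest on the spread between them. Intensities have an arbitrary unit, and array medians lay between 21.2 and 26.7. Of the cardiomyocyte markers, 16 of 18 listed were on the array and none was below the floor of 20 on all arrays.

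Oxidative phosphorylation passes electrons from NADH through complex I, or from succinate through complex II, to coenzyme Q, then through complex III, cytochrome c and complex IV to oxygen. Complexes I, III and IV pump protons out of the mitochondrial matrix, and complex V, the ATP synthase, makes ATP as the protons return. The working heart draws most of its ATP from this chain, and its subunits are encoded partly in the nucleus and partly in mitochondrial DNA. The mitochondrially encoded subunits were not analysed here.

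Most nuclear subunits were slightly lower in TAC hearts, and none passed the test. With the sexes weighted equally, 74 of 81 tested probe sets were lower and 7 were higher, where 58.2% of all tested probe sets were lower. The median change of the members was -0.16 on the log2 scale, beside -0.03 over all tested probe sets. With limma and Benjamini-Hochberg adjustment over all tested probe sets, 0 members were called, where 24 probe sets (0.322%) were called in all. At an unadjusted p under 0.05, 14 members were lower and 0 were higher, beside 4.66% of all tested probe sets lower and 2.86% higher. The smallest adjusted p of a member was 0.199. Counting 1 probe set per gene, 63 of 67 genes were lower and the median was -0.17. Many members are bright, so the brightest 10% of tested probe sets were looked at as well. They had a median of -0.01 over 746 probe sets, while the 52 members among them had a median of -0.18 with 50 lower, and the other 29 members had a median of -0.15 with 24 lower.

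The 20 members that were not tested are dim on every array, with no intensity above 27.7. They include both probe sets of Cox5a and of Ndufaf1, the only ones of Cox8a, Ndufs4, Ndufc2 and Ndufa12, and 1 of the 2 probe sets of Cox4i1. With no filter on dim probe sets, 79 of the 101 members were lower and the median was -0.13. Members below the floor of 20 on every array show no change there and cannot count as lower.

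**Figure D1:**
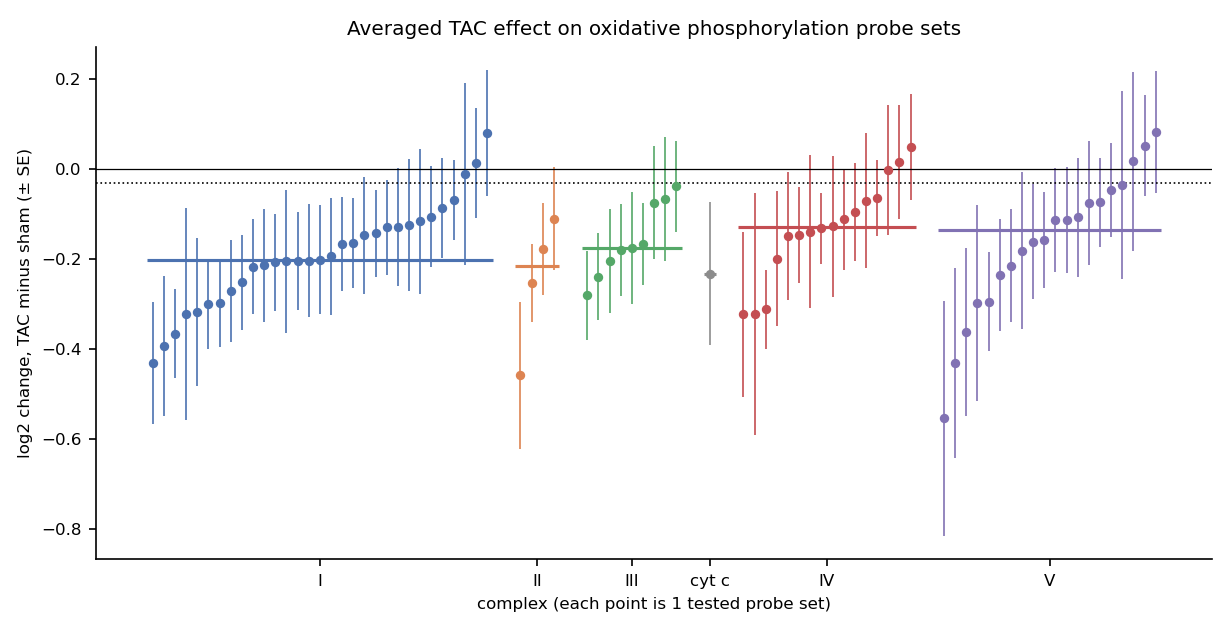
Log2 change from sham to TAC, averaged over the sexes, of each of the 81 tested probe sets, ordered within each complex. Points are estimates, bars are SE, thick lines are the medians of each complex, and the dotted line is the median of all tested probe sets (-0.03). The medians of complexes I to V lie between -0.22 and -0.13, and the 1 cytochrome c probe set is at -0.23. All lie below the dotted line.

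All complexes had medians below that of all probe sets. Complex I had a median of -0.20, with 29 of 31 probe sets lower. Complex II had a median of -0.22, with 4 of 4 lower, and complex III a median of -0.18, with 9 of 9 lower. Complex IV had a median of -0.13, with 14 of 16 lower, and complex V a median of -0.14, with 17 of 20 lower. Without female TAC 1 the complex IV median was -0.08, and with no filter on dim probe sets it was -0.07. The latter takes in probe sets held at the floor on every array, which cannot show a change. With each array centred on its median it was -0.12 for complex III, -0.07 for complex IV and -0.08 for complex V. The members are measured on the same arrays and so share whatever moves an array as a whole. No difference between complexes was tested.

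The level of each array was taken as the median deviation of the 81 members from the sham mean of the same sex. Sham hearts ranged from -0.17 (male sham 4) to 0.29 (male sham 8). Female TAC hearts 1 to 3 had levels of -0.30, -0.08 and -0.20, and male TAC hearts 4 to 6 had -0.20, -0.23 and 0.01. Thus 4 TAC arrays were below every sham array, while female TAC 2 and male TAC 6 lay inside the sham range. On male TAC 6, 37 of 81 members were below the sham mean, against 50 to 78 on the other TAC arrays. Without male sham 8 the median change was -0.14, and without male TAC 6 it was -0.20. Female TAC 1 also had the lowest median intensity of all arrays, 21.2, and its median over all tested probe sets was -0.15. Without that array 70 of 81 members were lower, with a median of -0.12, while the median of all tested probe sets was 0.00.

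**Figure D2:**
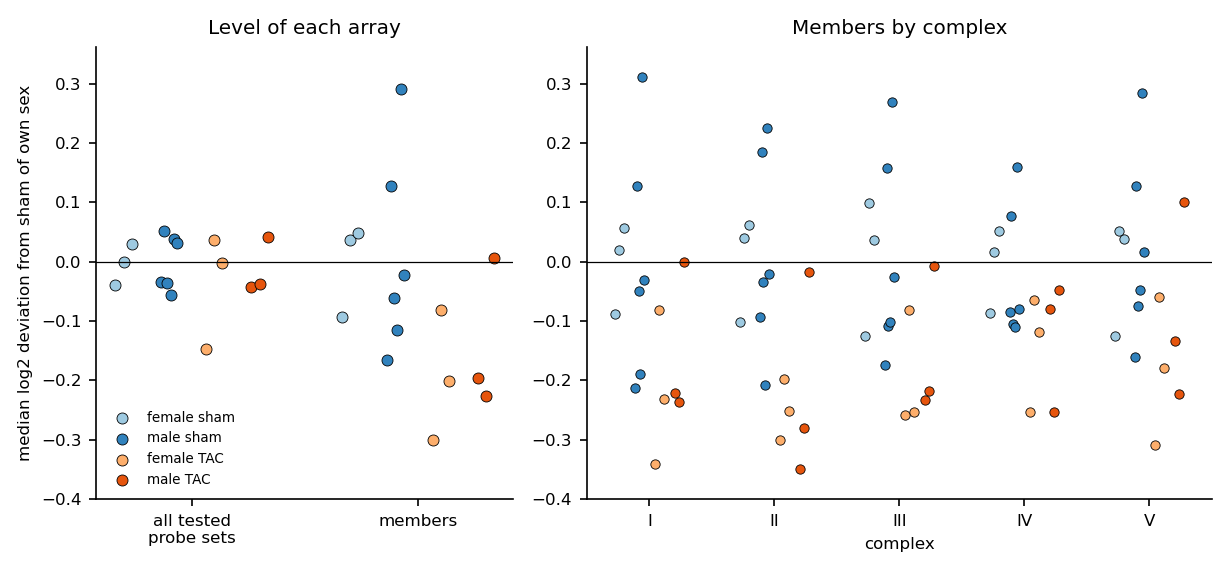
Median log2 deviation from the sham mean of the same sex, 1 point per array, for all tested probe sets and the 81 members (left) and for the members of each complex (right). Over the members the 9 sham arrays span -0.17 to 0.29 and the 6 TAC arrays span -0.30 to 0.01, so the groups overlap.

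Markers of other cells were read on the same arrays. Summed cardiomyocyte marker intensities ranged from 39751 to 48223 in sham and from 41659 to 50148 in TAC hearts, and 10 of 16 such markers were lower, with a median of -0.05. Fibroblast markers were higher in 8 of 11 cases, with a median of 0.38, and their sum ranged from 1359 to 1793 in sham and from 1734 to 2746 in TAC hearts. Of these markers Postn rose (1.45 ± 0.19, limma adjusted p = 0.00109). Among the atrial markers Nppa rose (2.83 ± 0.22, limma adjusted p = 1.29e-06), whereas Myl7 and Myl4 had changes of -0.02 and -0.41. The atrial sum, which includes Nppa, ranged from 204 to 853 in sham and from 1215 to 2874 in TAC hearts. Mean intensities over all arrays were 837 for Nppa, 148 for Myl7 and 147 for Myl4. Median changes were 0.00 for 9 endothelial, -0.08 for 6 smooth muscle, -0.03 for 10 macrophage and leukocyte, -0.06 for 4 red blood cell, -0.14 for 4 fat cell and -0.13 for 8 skeletal muscle markers. Kdr, Myh11, Ptprc, Adgre1, Itgam, Fcgr3, Cd79b, Fabp4, Nr2f1, Myh1 and Tnni2 were below the floor on all arrays. The ratio of 3′ to 5′ control probe sets for Gapdh lay between 0.688 and 0.836 in sham and between 0.573 and 0.880 in TAC hearts. For Actb it lay between 0.390 and 0.719 in sham and between 0.371 and 0.449 in TAC hearts. Both Actb control sets were brighter on average in TAC hearts. Their mean intensities in sham and TAC hearts were 729 and 966 at the 3′ end, and 1368 and 2325 at the 5′ end. In TAC hearts, Gapdh ratios were highest on female TAC 2 (0.880) and male TAC 6 (0.828), whose member levels lay inside the sham range. Actb ratios in TAC hearts were highest on female TAC 2 (0.449) and female TAC 1 (0.429). Female TAC 1 had the lowest member level (-0.30), and male TAC 6 had an Actb ratio of 0.422. In sham hearts, Actb ratios were highest on male sham 8 (0.719) and male sham 5 (0.653), which had the highest member levels. The highest Gapdh ratio in sham hearts was on female sham 3 (0.836), with a member level of 0.05. Male sham 5, 7 and 8 had Gapdh ratios of 0.790, 0.787 and 0.768, with member levels of 0.13, -0.12 and 0.29. The part of the marker values and ratios in the members' levels was not tested. In a whole ventricle, fewer cells of a type and less RNA per cell cannot be told apart.

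Promoters of nuclear respiratory genes are known for sites of nuclear respiratory factor 1 (NRF-1). Exact matches to the letters of such sites were searched in the sequences around the gene starts. Windows of 300 bases from RefSeq (build GRCm38.p6), from 250 before to 50 after the start, were held for 59 of the 73 member genes. The NRF-1 letters, GCGCA and GCGC with any base between them, were searched on both strands, as were all motifs, none of which contains another. They were in 12 of the 59 genes (20.3%), beside 5.19% of all 27025 genes with a window and 7.17% of 17492 coding genes. The YY1 letters AAGATGGC were in 8 genes (13.6%, beside 3.57% of coding genes). The cyclic AMP response element TGACGTCA was in 3 (5.08%, beside 2.54%), the estrogen-related receptor letters AAGGTCA in 5 (8.47%, beside 4.73%) and the GABP letters CCGGAAGT in 4 (6.78%, beside 5.69%). The TATA box letters TATAAA were in 6 (10.2%, beside 14.8%), a smaller share than among coding genes. A match is a description of these letters only. A site that differs from them in any base was not counted. Genes without an NRF-1 match, such as Cycs and Cox7a1, may therefore still hold a site. Among tested genes with the NRF-1 letters, 11 of 12 were lower in TAC hearts, with a median of -0.18, and among those without them 39 of 41 were lower, with a median of -0.14.

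The 250 bases before the start are shown for Sdha, which has 3 NRF-1 matches and the most negative change of complex II, Ndufa8, which has 1 match and lies near the middle of the complex I changes, Cycs, which has the cyclic AMP element, and the isoform genes Cox6a1, with 2 NRF-1 matches, and Cox7a1, with none. They lie at chr13:74350241-74350490, chr2:36049339-36049588, chr6:50566570-50566819 and chr5:115348959-115349208 on the minus strand and, for Cox7a1, at chr7:30183921-30184170 on the plus strand. Each is written 5′ to 3′ on the gene's strand and ends at the base before the start, and capitals mark the matches.
Sdha: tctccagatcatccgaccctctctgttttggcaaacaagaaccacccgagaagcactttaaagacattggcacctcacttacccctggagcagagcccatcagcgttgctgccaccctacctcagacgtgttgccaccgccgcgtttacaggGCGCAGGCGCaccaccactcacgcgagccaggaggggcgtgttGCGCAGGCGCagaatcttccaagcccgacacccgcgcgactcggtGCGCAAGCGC
Ndufa8: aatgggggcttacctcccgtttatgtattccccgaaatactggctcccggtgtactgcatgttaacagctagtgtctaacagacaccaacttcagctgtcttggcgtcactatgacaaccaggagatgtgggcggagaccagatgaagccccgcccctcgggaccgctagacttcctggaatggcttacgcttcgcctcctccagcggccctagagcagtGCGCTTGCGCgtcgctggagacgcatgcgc
Cycs: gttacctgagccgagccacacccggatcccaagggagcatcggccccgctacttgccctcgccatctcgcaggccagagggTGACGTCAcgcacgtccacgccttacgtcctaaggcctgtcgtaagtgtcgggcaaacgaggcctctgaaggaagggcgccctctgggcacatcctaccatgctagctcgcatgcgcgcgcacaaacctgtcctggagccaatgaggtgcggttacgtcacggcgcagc
Cox6a1: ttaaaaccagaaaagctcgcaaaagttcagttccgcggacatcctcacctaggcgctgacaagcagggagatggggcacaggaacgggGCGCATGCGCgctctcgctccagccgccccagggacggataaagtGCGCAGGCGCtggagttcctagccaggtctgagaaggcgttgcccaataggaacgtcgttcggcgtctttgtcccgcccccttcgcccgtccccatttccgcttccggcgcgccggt
Cox7a1: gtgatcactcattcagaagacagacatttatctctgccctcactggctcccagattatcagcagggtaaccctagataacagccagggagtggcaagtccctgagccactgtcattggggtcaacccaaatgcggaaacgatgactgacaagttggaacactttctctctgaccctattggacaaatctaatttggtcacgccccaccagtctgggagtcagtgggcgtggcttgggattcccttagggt
The Sdha matches begin 98, 55 and 10 bases before the start, that of Ndufa8 30 bases, those of Cox6a1 162 and 117 bases, and the Cycs element 169 bases. Ndufa8, a small accessory subunit of complex I, had a change of -0.17 ± 0.10.

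Complex I takes electrons from NADH through the flavin-bearing subunit Ndufv1 and a chain of iron-sulfur clusters held by subunits such as Ndufv2 and Ndufs1. Its tested probe sets had changes between -0.43 and 0.08. The smallest p of any member belonged to Ndufa7, an accessory subunit. Ndufa7 intensities were 756, 818 and 839 in female sham hearts, and 576, 607 and 642 in female TAC hearts. In male sham hearts they ranged from 692 to 962 with a median of 770, and male TAC hearts gave 651, 585 and 705. All 3 female TAC hearts were below all female sham hearts, and of the male TAC hearts only TAC 6 reached into the sham range. The TAC intensity was 0.776 times that of sham (95% CI 0.671 to 0.896), a log2 change of -0.37 ± 0.10 with an adjusted p of 0.199 from limma.

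Ndufv1, the NADH-binding subunit, read 953, 958 and 1151 in female sham and 763, 760 and 896 in female TAC hearts. Male sham hearts ranged from 918 to 1175 with a median of 1036, and male TAC hearts read 892, 742 and 1001. The female groups did not overlap, whereas male TAC 6 was inside the male sham range. The change was -0.30 ± 0.10 (limma adjusted p = 0.395).

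The partner subunit Ndufv2, which carries an iron-sulfur cluster, has 2 tested probe sets. The dimmer one read 226, 219 and 221 in female sham and 152, 168 and 189 in female TAC hearts. In males, sham hearts ranged from 201 to 282 with a median of 226, and TAC hearts read 118, 157 and 245. Male TAC 6 was the only TAC heart above the lowest sham heart. This probe set had a change of -0.43 ± 0.14 (limma adjusted p = 0.340), and without male TAC 6 it was -0.57 with an adjusted p of 0.0437. The brighter one had a change of -0.13 ± 0.13, and the difference between the probe sets was not tested.

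Ndufa10, an accessory subunit of the matrix side of the membrane arm, had a change of -0.30 ± 0.10 (limma adjusted p = 0.371). Its groups did not overlap in females, at 79.3 or more in sham and 74.8 or less in TAC hearts. Ndufa2, an accessory subunit of the matrix arm, had a change of -0.39 ± 0.16 (limma adjusted p = 0.540), with values of -0.23 in females and -0.56 in males. Of the core subunits, Ndufs3 had a change of -0.25 ± 0.11 and Ndufs1, which carries several iron-sulfur clusters, -0.19 ± 0.13. At the other end, Ndufb3 had a change of 0.01, and the 2 probe sets of Ndufb10 had changes of -0.07 and 0.08, opposite in sign and both smaller than their SE. The remaining complex I probe sets lay between -0.32 and -0.01.

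Complex II oxidises succinate and is the only complex shared with the tricarboxylic acid cycle. All 4 of its subunits were measured. Sdhc, a membrane anchor, read 635, 677 and 667 in female sham and 549, 559 and 520 in female TAC hearts. In males, sham hearts ranged from 582 to 688 with a median of 649, and TAC hearts read 497, 546 and 603. The groups were apart in females, and in males TAC 6 alone was above the lowest sham heart. Its change of -0.25 ± 0.09 gave a limma adjusted p of 0.417.

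Sdha, the flavoprotein that binds succinate and whose promoter is shown above, was dim. Its intensities were 35.8, 37.5 and 36.9 in female sham and 13.8, 30.3 and 28.8 in female TAC hearts. The male sham range was 15.3 to 40.3 with a median of 32.7, and male TAC hearts read 12.5, 17.7 and 30.9. The male groups overlapped, and 4 of the 15 arrays were below the floor of 20. The floor makes the estimated change smaller than the measured intensities would give. The change was -0.46 ± 0.16 (limma adjusted p = 0.447), or -0.37 without female TAC 1. The iron-sulfur subunit Sdhb had a change of -0.11 ± 0.11 and the anchor Sdhd -0.18 ± 0.10.

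Complex III passes electrons from reduced coenzyme Q to cytochrome c. Uqcrq, a small subunit bound to cytochrome b, had the largest difference there. It read 1814, 1817 and 1737 in female sham and 1331, 1558 and 1373 in female TAC hearts. Values in male sham hearts ran from 1516 to 2145 with a median of 1749, and male TAC hearts read 1515, 1435 and 1623. The female groups were apart and the male groups overlapped. The change was -0.28 ± 0.10 (limma adjusted p = 0.441).

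Uqcrc2, a core protein of complex III, read 906, 1077 and 989 in female sham and 890, 866 and 829 in female TAC hearts. Male sham values ran from 885 to 1279 with a median of 966, and male TAC hearts read 869, 761 and 842. TAC was below sham without overlap in each sex, although female TAC 1 was above male sham 4, the lowest sham heart. Male sham 7, at 1279, stood far above the other male sham hearts. The change was -0.24 ± 0.10 (limma adjusted p = 0.553). The other core protein, Uqcrc1, had a change of -0.18 ± 0.10 and Uqcrb one of -0.20 ± 0.11. Cyc1, the haem-bearing cytochrome c1, had changes of -0.17 and -0.04 on its 2 probe sets. Uqcrfs1, the Rieske subunit, was not analysed here.

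Cytochrome c itself, Cycs, carries electrons from complex III to complex IV. It read 102, 145 and 160 in female sham and 103, 115 and 105 in female TAC hearts. In male sham hearts the range was 92.7 to 162 with a median of 119, and male TAC hearts read 76.8, 109 and 146. The groups overlapped in both sexes. The change of -0.23 ± 0.16 gave a limma adjusted p of 0.803, and the value was -0.11 without male TAC 4 and -0.35 without male TAC 6.

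**Figure D3:**
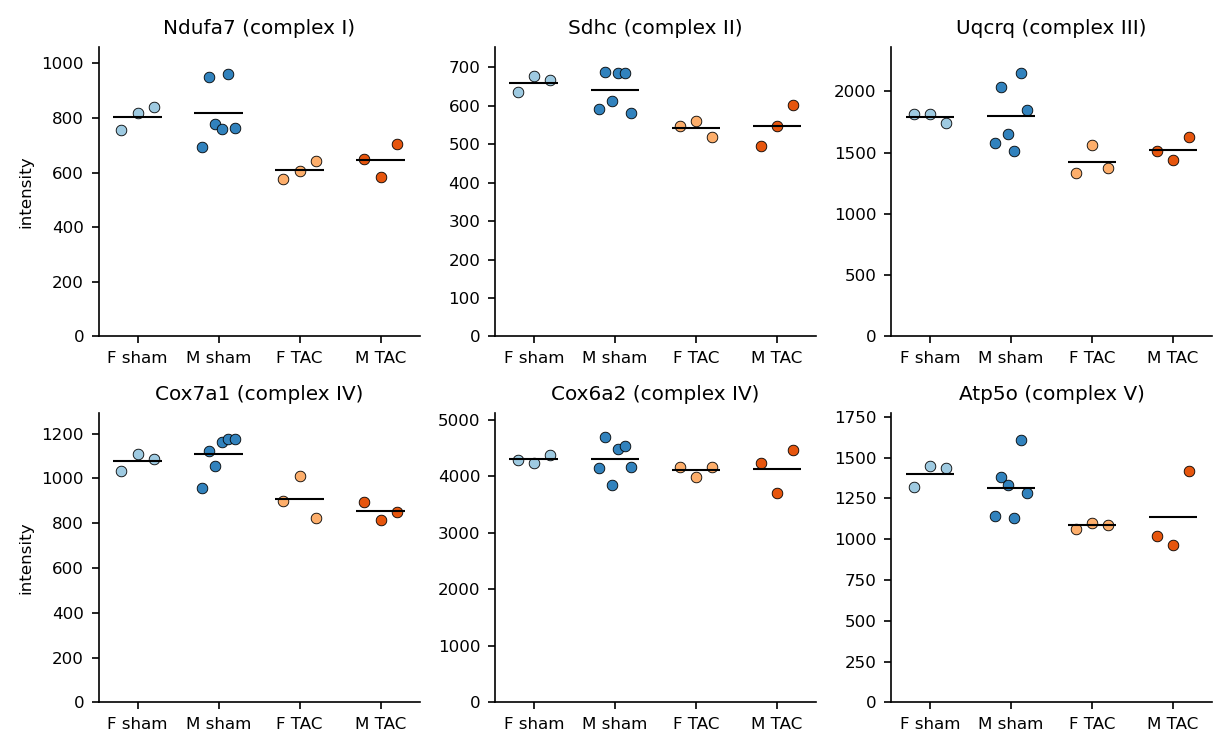
Intensity (arbitrary unit, linear axis from 0) of 6 members on each array, by sex (F, female; M, male) and operation. Points are arrays and lines are group means; Cox7a1 is lower in TAC within each sex without overlap, whereas the Cox6a2 values of all 4 groups lie between 3700 and 4695.

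Complex IV reduces oxygen, and several of its small subunits exist as heart and skeletal muscle isoforms beside widely expressed ones. Cox7a1, the muscle isoform of subunit VIIa, had the most regular difference of the complex. It read 1031, 1110 and 1087 in female sham and 898, 1009 and 822 in female TAC hearts. In males, sham hearts ranged from 958 to 1178 with a median of 1144, and TAC hearts read 893, 814 and 849. TAC was below sham in each sex without overlap, and female TAC 2 was the one TAC heart above the lowest sham heart. The TAC intensity was 0.805 times that of sham (95% CI 0.708 to 0.916), a log2 change of -0.31 ± 0.09 with a limma adjusted p of 0.231.

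Cox6a2, the muscle isoform of subunit VIa, showed little difference. It read 4295, 4242 and 4376 in female sham and 4166, 3996 and 4166 in female TAC hearts. Sham intensities in males ran from 3848 to 4695 with a median of 4326, and male TAC hearts read 4239, 3700 and 4461. The female groups were apart by a small margin and the male groups overlapped. The change was -0.06 ± 0.08 (limma adjusted p = 0.908), with a 95% CI of -0.24 to 0.11.

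Tissue isoforms were compared with their widely expressed partners in the 3 pairs for which both were tested, out of 6 listed. For Cox7a1 against Cox7a2 the change differed by -0.17 (exact permutation p = 0.267), since Cox7a2 had a change of -0.14 ± 0.17. For Cox6a2 against Cox6a1 it differed by -0.08 (exact permutation p = 0.514), and for Cox6b2, known for its testis expression, against Cox6b1 by -0.11 (exact permutation p = 0.492). The two-sided tests exchanged operation labels within each sex over 1680 labelings, which allows a p as small as 0.000595, and adjusted over the 3 pairs each p was 0.514. Without male TAC 6 the Cox7a1 difference was -0.03. Leaving out 1 array turned the sign of the other 2 differences in some cases, with highest values of 0.01 for Cox6a2 and 0.03 for Cox6b2.

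Among the other subunits of complex IV, Cox7b had a change of -0.32 ± 0.27 and Cox8b, the muscle isoform of subunit VIII, had changes of -0.32 ± 0.18 and -0.13 ± 0.16 on its 2 probe sets. Cox5b had a change of -0.10 ± 0.11, and Cox6b1 was at -0.00. Cox6a1 and Cox4i1 were at 0.02 and 0.05, and the tested Cox4i1 probe set read between 17.4 and 33.9, close to the floor.

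Complex V joins a membrane ring of c subunits to the catalytic head of alpha and beta subunits, through a central stalk that holds the gamma subunit and a peripheral stalk outside. Atp5o, which ties the peripheral stalk to the head, read 1319, 1449 and 1436 in female sham and 1065, 1101 and 1090 in female TAC hearts. Across male sham hearts the range was 1132 to 1610 with a median of 1308, and male TAC hearts read 1023, 963 and 1421. The female groups were apart, 2 male TAC hearts were below all male sham hearts, and male TAC 6 was above all but 1 of the male sham hearts. The change was -0.29 ± 0.11 (limma adjusted p = 0.480).

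The most negative values of complex V rest on 1 array. Atp5a1, the alpha subunit, read 733 on female TAC 1 and between 1959 and 2987 on all others. The brighter probe set of Atp5c1, the gamma subunit, read 217 there and between 813 and 1242 elsewhere. The brightest probe set of Atp5d, the delta subunit of the central stalk, read 102 there and between 234 and 392 elsewhere. With all arrays the changes were -0.43 ± 0.21 for Atp5a1, -0.55 ± 0.26 for Atp5c1 and -0.30 ± 0.22 for Atp5d. Without female TAC 1 they were -0.13, -0.18 and -0.02. The other probe set of Atp5c1 read 417 on female TAC 1, inside the range of the others, and had a change of -0.18 ± 0.17. Of the 1194 probe sets with at least 100 on every other array, 23 were under 0.5 times the lowest other array on female TAC 1, and these 3 were the only members among them. The same count was between 0 and 2 on each of the other arrays.

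**Figure D4:**
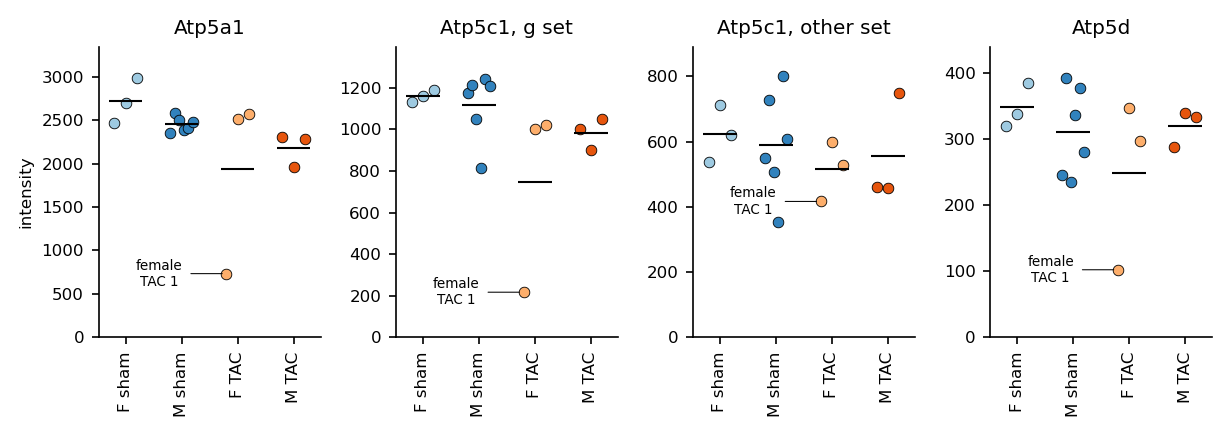
Intensity (arbitrary unit, linear axis from 0) of 4 complex V probe sets on each array, by sex and operation; points are arrays and lines are group means. Female TAC 1 reads 733 for Atp5a1, 217 for the brighter Atp5c1 probe set and 102 for Atp5d, far below every other array, and 417 for the other Atp5c1 probe set, within the spread.

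Atp5a1 had lower intensities in male TAC (2305, 1959 and 2283) than in every male sham heart (2352 to 2590). Atp5e, the epsilon subunit of that stalk, had a change of -0.36 ± 0.19, or -0.17 without female TAC 1. Atp5d has 5 tested probe sets with changes between -0.30 and 0.08, and 4 of them were lower. The c-ring gene Atp5g1 had changes of -0.07 and 0.05 on its 2 probe sets, the second close to the floor. Atp5pb, the b subunit of the peripheral stalk, had a change of 0.02 ± 0.20. The beta subunit gene Atp5b was not analysed here. Over all complexes 11 genes had several tested probe sets, and those of Atp5d, Atp5g1 and Ndufb10 disagreed in sign.

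The sexes share no array, so each gives its own change, although the fit takes the SE and p of both from a shared estimate of spread. In females 74 of 81 members were lower (background 59.4%), with a median of -0.20, and in males 69 of 81 (background 52.7%), with a median of -0.13. Both sexes were lower for 65 members (80.2%), beside 35.1% of all tested probe sets, and 13 members had opposite signs. No member was called in either sex, where limma called 0.0805% of all tested probe sets in females and 0.134% in males. At an unadjusted p under 0.05, 9 members were lower in females (background 2.98%) and 6 in males (background 3.22%). With the replicate number as a block, limma called 3 probe sets in females instead of 6, no member was called, and the female median was again -0.20. Without female TAC 1 the female median was -0.14, with 81.5% of members lower. Without male TAC 6 the male median was -0.22, with 91.4% lower, and without male TAC 5 it was -0.09.

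**Figure D5:**
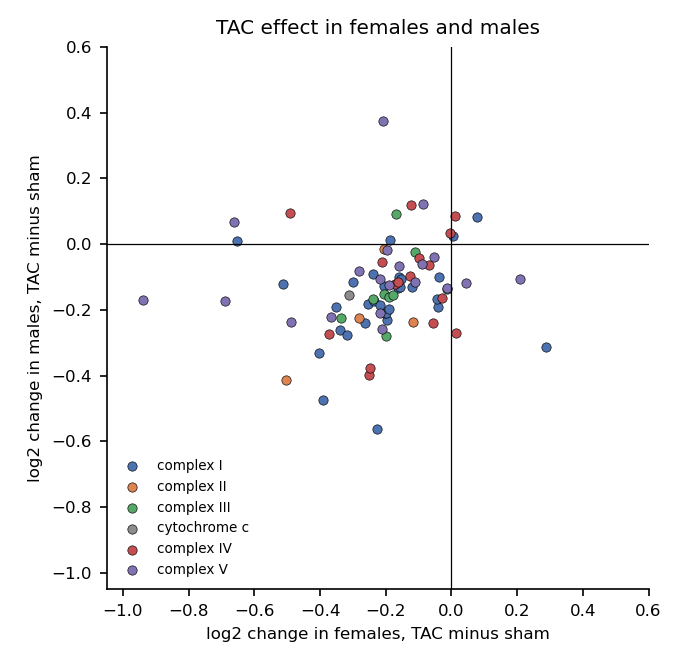
Log2 change from sham to TAC in males (vertical axis) against that in females (horizontal axis) for the 81 tested probe sets, coloured by complex. The lower left quadrant holds 65 of them; the points farthest left belong to Atp5c1 (-0.94 in females, -0.17 in males) and Atp5a1 (-0.69 and -0.17).

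Groups that did not overlap were counted as a description. Over all arrays 0 members had every TAC heart below or every TAC heart above every sham heart, beside 0.161% and 0.255% of all tested probe sets. In females 28 members were lower without overlap (34.6%), beside 5.49% of all tested probe sets, and 0 were higher, beside 3.02%. Of the 28, 15 belonged to complex I, 3 to complex II, 4 to complex III, 4 to complex IV and 2 to complex V. In males, with more sham arrays, 3 members were lower without overlap (3.70%), beside 1.34% in all, and 0 were higher, beside 1.62%. The 3 were Uqcrc2, Cox7a1 and Atp5a1. Uqcrc2 and Cox7a1 were in both sets.

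Whether females and males differed in their change was tested with limma's interaction contrast. By this test 0 probe sets were called among all tested, and 191 (2.56%) had an unadjusted p under 0.05. The one member below that value was the third brightest Atp5d probe set, with changes of -0.21 in females and 0.37 in males (unadjusted p = 0.0472, adjusted p = 1.00). Its female values were 109, 150 and 152 in sham and 94.8, 142 and 120 in TAC hearts. Male sham intensities ranged from 89.8 to 133 with a median of 105, and male TAC hearts read 119, 127 and 176. The groups overlapped in both sexes, and the other Atp5d probe sets gave male values between -0.12 and 0.07.

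Genes that work with the chain were read from lists, with 1 probe set per gene, beside the 58.2% of all tested probe sets that were lower. The list of tricarboxylic acid cycle enzymes, which supply NADH and succinate, had 14 of 15 genes lower and a median of -0.23. It also held the pyruvate dehydrogenase genes Pdha1, Pdhb and Dlat, and Dlat was the 1 gene higher (0.10). The smallest p there belonged to Idh2, the mitochondrial NADP-dependent isocitrate dehydrogenase (-0.33 ± 0.10, limma adjusted p = 0.320). Genes of electron entry and coenzyme Q were lower for 9 of 13, with a median of -0.12, and the smallest p was that of Nnt, which makes NADPH from NADH with the proton gradient (-0.35 ± 0.09, limma adjusted p = 0.156). Of 45 listed assembly factors, 21 were on the array and 19 were tested. They were lower for 13 of 19, with a median of -0.04. Cox18, which inserts a complex IV subunit, had the smallest p (-0.32 ± 0.11, limma adjusted p = 0.448).

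The list for exchange of ATP and phosphate held Slc25a3, Slc25a4, Slc25a5, Vdac1, Vdac2, Vdac3, Ucp3 and Ckmt2, not all of them inner membrane carriers. It had 6 of 8 genes lower and a median of -0.07, and the phosphate carrier Slc25a3 was at -0.23 ± 0.11 (limma adjusted p = 0.686). Of 20 listed regulators of mitochondrial biogenesis, 15 were on the array and 8 were tested. Ppargc1a, Nrf1, Gabpa, Tfam and Esrrg were not among the tested genes. The tested regulators were lower for 6 of 8, with a median of -0.06. Gabpb1, a subunit of the factor GABP, had the smallest p of that list (-0.45 ± 0.10, limma adjusted p = 0.0871). Mitochondrial ribosomal protein genes were lower for 35 of 51, with a median of -0.08, and Mrpl9 had the smallest p (-0.35 ± 0.16, limma adjusted p = 0.649). No gene of these 6 lists was called, where 0.322% of all tested probe sets were.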

How the data were processed

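Each of 15 arrays measured total RNA of left ventricle. The authors deposited a linear intensity per probe set, in arbitrary units, with no software or scaling stated (not given in the sources used here). Gene symbols came from the platform annotation. Values were raised to a floor of 20 where lower, which makes changes of dim probe sets smaller, and log2 was taken. The 60% of the 12422 non-control probe sets with the highest mean were tested, 7453 in all.

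A mean for each sex and operation was fitted with limma 3.58.1 in R 4.3.3. The TAC effect was averaged over the sexes, with Benjamini-Hochberg adjustment over all tested probe sets and calls at an adjusted p under 0.05. Errors after ± are SE. The fit was tested on simulated data with independent errors and with changes larger than the members' median change. That test does not cover smaller changes or shifts shared by a whole array. Isoform pairs were compared by exact permutation within each sex. Members named one by one were those called, the 3 largest falls and 2 largest rises of a complex, those with an unadjusted p under 0.01, a list of core subunits and isoforms, and genes whose probe sets disagreed in sign. Of each other pathway list the called genes and the gene of smallest p were named. Members and lists were chosen with earlier results of these data known. Same-numbered sham and TAC arrays deviated from their group means with correlations of 0.244, 0.270 and 0.117 in females and 0.0641, -0.0828 and 0.0136 in males. All 3 female values passed the limit of 0.1 for taking the numbers as pairs and the male values did not. As the limit was not passed in both sexes, the fit has no block. The female and averaged SE and p-values therefore leave out any pairing of the female arrays. The blocked female count is given beside the female result.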

Additional observations from a re-analysis of the deposited data

Results flagged for a closer look

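Of 49 sets of male sham values examined (member intensities and array levels), each of 6 arrays, 1 held an array far from the others. The Uqcrc2 intensity was 1279 on male sham 7 and lay between 885 and 994 on the other male sham arrays. Its gap to the nearest array was 0.725 of the whole range, above the 95% critical value of Dixon's ratio for 6 values. About 1 in 20 such groups passes that value by chance.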

How the results depend on the processing

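Under the alternatives that kept all arrays, the share of oxidative phosphorylation probe sets that were lower in TAC hearts ranged from 78.2% (no filter on dim probe sets) to 95.7% (a stricter filter). The share with no filter counts members held at the floor on every array as not lower. The median log2 change of the members ranged from -0.20 (array weights) to -0.11 (each array centred on its median, which moved the median of all tested probe sets to 0.02). The medians of the 5 complexes and of cytochrome c stayed below 0 in each of these fits and in each fit without 1 array. With array weights 1 member was called, Cox7a1 (-0.37, limma adjusted p = 0.0279). Leaving out 1 array gave 0 to 1 called members, and the call came from Ndufv2 (-0.57, limma adjusted p = 0.0437) without male TAC 6. The share lower then ranged from 86.4% (without female TAC 1) to 95.1% (without male TAC 6), and the median from -0.21 to -0.12. Lower members at an unadjusted p under 0.05 numbered 14 as reported, 34 with array weights, 10 with median centring and 9 without male TAC 5. Of the 43 members named by rule, 7 changed sign under some alternative.

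Over all probe sets 24 were called as reported. Calls numbered 45 after quantile normalization, 45 after median centring, 12 with the floor at the 10th percentile, 13 with no filter and 68 with array weights. Leaving out 1 array called 12 to 29. The count moved by over 1.5 times without female sham 1, 2 or 3 (14 each), without male sham 6 (15), without female TAC 2 (15) and without male TAC 5 (12). With the replicate number as a block 8 were called, no member was called in either sex or averaged, and the members' averaged median was -0.14. Male calls over all probe sets numbered 3 with the block and 10 without. The causes of these differences were not tested.

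Precision is limited by how few arrays there are. The median SE of a member's change was 0.12, close to the median change itself. Values near the floor understate changes, and 20 members were too dim to be tested. No detection calls were used here, so a dim intensity cannot be told from background.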
